A study of Mus musculus with 2 samples.

Results

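Mast cells and basophils made up 67 of the 11350 barcodes kept from CD45+ cells of mouse liver tumours, 23 in the PBS library and 44 in the AKK library. A member was a barcode with at least 200 detected genes and under 15% of its unique molecular identifiers (UMIs, each standing for 1 captured RNA molecule) from mitochondrial genes, with at least 3 UMIs summed over Ms4a2, Cpa3, Gata2 and Mcpt8 from at least 2 of these genes, and with none of Cd3e, Cd79a or C1qa. Members were divided by Kit and Mcpt8: the mast side held Kit and no Mcpt8, the basophil side held Mcpt8 and no Kit, and the rest held both genes or neither. Members and sides were chosen by the measured counts of these genes, so the levels of Ms4a2, Cpa3, Gata2, Mcpt8 and Kit and all gene contrasts between the sides are given as a description and are not tested.

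The study examined how oral Akkermansia muciniphila, a bacterium of the gut mucus layer, affects the immune cells of liver tumours in mice with fatty liver. Both libraries came from C57BL/6 mice on an MCD diet with tumours grown in the liver from luciferase-labelled RIL-175 cells, a mouse hepatocellular carcinoma line. The AKK mice received 5000000000 CFU of the bacterium by mouth and the PBS mice received PBS, both starting 2 weeks before the diet, which was given for 2 weeks before implantation. Feeding of the bacterium paused for 6 days after surgery. Live CD45+ cells were sorted after collagenase digestion, a Percoll gradient and red cell lysis, and the labels do not say how many mice each library holds. With 1 library per group there was no replicate, so no test between PBS and AKK was possible, and every interval given here covers counting error only.

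Mast cells and basophils both carry the high-affinity IgE receptor and release histamine. Mast cells mature in tissues under signals through KIT, the receptor of stem cell factor, and store large amounts of proteases: those of mucosa are known for the chymases Mcpt1 and Mcpt2, and those of connective tissue for Mcpt4, Cma1, the tryptase Tpsb2 and the carboxypeptidase Cpa3. Basophils circulate in blood, are marked in the mouse by the proteases Mcpt8 and Prss34, and secrete interleukin 4, interleukin 6 and chemokines.

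The libraries held 64731604 UMIs in 5088 PBS barcodes and 74495998 UMIs in 6610 AKK barcodes, of which 4833 and 6517 were kept, with median depths of 6868 and 6639 UMIs. They shared 8 barcode sequences, and 0 of these were members.

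Most members carried the markers of their side, but a few went against the label. One AKK barcode without Kit and Mcpt8 had 104856 UMIs, 155 of them from the epithelial keratin Krt8, beside 1 UMI of Ms4a2 and 2 of Gata2. Granulocyte precursor genes (at least 3 UMIs over Mpo, Elane, Prtn3 and Ctsg from at least 2 of them) were found in 1 PBS and 3 AKK members. The PBS barcode held both Kit and Mcpt8, with 39 UMIs of Mpo and 0 of Cpa3, Ms4a2 and Mcpt1. Of the AKK barcodes, 1 held both genes and had 200 UMIs of Mpo, 1 was on the mast side and 1 on the basophil side. The mast-side one had 15 UMIs of Mpo and 1 of Mcpt1 among 21877 UMIs. The basophil-side one was the deepest there, with 32099 UMIs, and it alone held 256 of the side's 339 Mcpt8 UMIs and 715 of its 780 Prss34 UMIs. Named ratios that moved by over 1.5 times, crossed 2-fold or came to include 1 without the precursor barcodes are given both ways. Doublet scores marked 1 member, the PBS barcode without Kit and Mcpt8.

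Markers of other cell types were read in the members at levels below, near or above those of the other barcodes. Of 10 precursor markers, 9 had a UMI on the PBS mast side, 9 on the AKK mast side and 8 on the basophil side. Their summed level per barcode, in CPM (a gene's UMIs as a share of all UMIs of the barcode or side, scaled to 1000000), was 0 to 2840.4 with a median of 1159 on the PBS mast side, 165 to 2788 with a median of 707 on the AKK mast side and 0 to 2555 with a median of 0 on the basophil side. The other PBS and AKK barcodes had medians of 72.0 and 130.3, so the mast sides stood above them. Of these markers, Ly6a had 104 and 68 UMIs on the PBS and AKK mast sides, and Cd34 had 61 and 61. Sox4 had 26 and 11, Myb 12 and 23 and Hlf 17 and 4, so Ly6a and Cd34 led the list there. Of 10 megakaryocyte and erythroid markers, 4, 3 and 2 had a UMI on the 3 sides in the same order, with Gp9, Gp1bb and Car1 among those at 0 on all. Their summed level was 308, 231 and 281 CPM, against 111 and 99.1 in the other PBS and AKK barcodes. Of 6 eosinophil markers, 3 had a UMI on the basophil side, with Epx, Siglecf and Car4 at 0, and they summed to 126 CPM (0 to 1277 per barcode) against 19.5 in the other AKK barcodes. Of 8 neutrophil markers, 7, 8 and 7 had a UMI, at 197 to 4052, 177 to 1407 and 211 to 1712 CPM per barcode, against medians of 4471 and 1538 in the other barcodes. Of 8 macrophage markers, 8, 3 and 5 had a UMI, at 0 to 810.4, 0 to 212 and 0 to 510.2 CPM per barcode, with C1qb, C1qc and Ms4a7 at 0 on both AKK sides. Of 10 markers of T, natural killer and type 2 innate lymphoid cells, 7, 7 and 6 had a UMI, at 0 to 492, 0 to 379 and 0 to 1792 CPM per barcode. Dendritic, B and plasma cell, and epithelial and stromal markers summed to 155, 133 and 318 CPM on the basophil side and 269.7, 82.5 and 451 on the AKK mast side, against 1079.8, 2179.8 and 592 in the other AKK barcodes. The part of these markers in the results was not tested.

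Members were 0.476% of kept PBS barcodes (95% Clopper-Pearson interval 0.302 to 0.713) and 0.675% of kept AKK barcodes (0.491 to 0.905). The AKK share was higher by 0.199 percentage points, and the Newcombe interval of -0.0937 to 0.479 includes 0, so no difference in the share could be told beyond counting error. The make-up of the members differed between the libraries. PBS members were 19 on the mast side, 0 on the basophil side, 3 with both genes and 1 with neither. AKK members were 13 on the mast side, 15 on the basophil side, 2 with both and 14 with neither. The mast side was thus 82.6% (61.2 to 95.05) of PBS members and 29.5% (16.8 to 45.2) of AKK members, a difference of -53.1 points (-68.5 to -28.5). Counted alone, Kit was present in 22 PBS and 15 AKK members and Mcpt8 in 3 and 17.

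Among kept barcodes, the basophil side was 0 of 4833 in PBS, which allows a share of up to 0.0621% by a limit of 3 counts and 0.0763% by the Clopper-Pearson bound, and 0.230% (0.129 to 0.379) in AKK. The AKK share was higher by 0.230 points, with an interval of 0.110 to 0.379 that excludes 0. Outside the members, Mcpt8 had a UMI in 61 PBS and 55 AKK kept barcodes, and Kit in 577 and 677. The difference thus holds for barcodes that pass the rule and not for all with Mcpt8. Members without any Kit UMI were 0.0207% of PBS and 0.445% of AKK barcodes, a difference of 0.424 points (0.258 to 0.618). Leaving out the keratin and the doublet-marked barcode gave 0% in PBS and 0.430% in AKK. Without the limit on Cd3e, Cd79a and C1qa, 3 PBS and 5 AKK barcodes joined the basophil side, so PBS then also held some, and the difference in members without Kit was 0.5003 points (0.296 to 0.722). The mast side was 0.393% of PBS and 0.199% of AKK barcodes, and the difference of -0.194 points (-0.429 to 0.00634) included 0. Without the mast-side precursor barcode the AKK share was 0.184% and the interval, -0.443 to -0.0119, excluded 0. This step was chosen after seeing the data and left in 2 PBS mast-side barcodes with 0 UMIs of Mcpt1, Mcpt2 and Mcpt4. Without the limit on Cd3e, Cd79a and C1qa the mast-side difference was -0.164 points (-0.419 to 0.0611) and included 0. Whether the interval excluded 0 thus depended on the barcodes included. Treatment and library cannot be told apart, nor can more barcodes of 1 kind and fewer of the others.

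**Figure D1:**
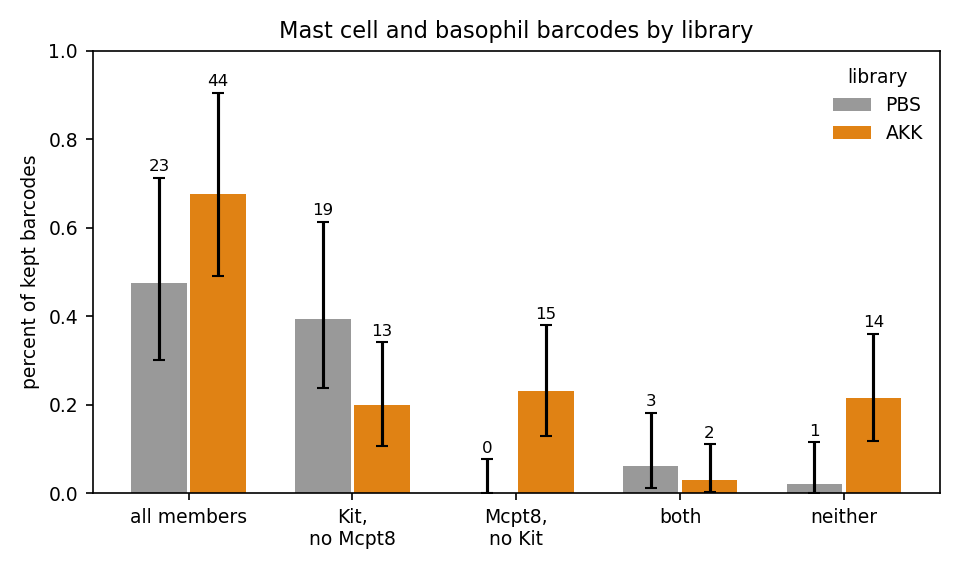
Share of kept barcodes (y axis, percent) that were members, in all and by side, in the PBS (grey) and AKK (orange) library; each bar is 1 library, whiskers are the 95% Clopper-Pearson interval and the number above each is its barcodes. The basophil side (Mcpt8, no Kit) stands at 0 in PBS and at 15 barcodes in AKK, while the mast side (Kit, no Mcpt8) holds 19 and 13.

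Few members lay close to the UMI limit of the rule, but more barcodes fell outside it on 1 limit. Exactly 3 UMIs of the 4 rule genes were found in 1 PBS and 2 AKK members, against medians of 30 and 22, and 3 barcodes in each library fell just short with 2 UMIs of 2 genes. A further 5 in each had at least 3 UMIs of 1 gene only, and 10 PBS and 17 AKK barcodes were left out for a UMI of Cd3e, Cd79a or C1qa. Mcpt8 rested on few molecules: 5 of the 17 AKK members that held it had exactly 1 UMI, and the median was 3. Kit had exactly 1 UMI in 1 of 22 PBS and 0 of 15 AKK members that held it, with medians of 7 and 8.

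Levels of known genes outside the rule differed between the sides. The mast cell and mucosal mast cell lists (25 genes, such as Mcpt1, Mcpt4 and Tpsb2) were summed in each barcode, as was the basophil list (20 genes, such as Prss34, Cd200r3, Ccl3 and Il4). The mast lists had a median of 93993 CPM on the PBS mast side, 118776 on the AKK mast side and 2531 on the basophil side. The basophil list had medians of 5015, 4334 and 42559.8 CPM in the same order. The mast lists stood above the basophil list in 17 of 19 PBS and 12 of 13 AKK mast-side barcodes and in 0 of 15 on the basophil side. The AKK exception was the precursor barcode. The PBS exceptions were 2 barcodes with 0 UMIs of Mcpt1, Mcpt2 and Mcpt4, of which 1 had 40 UMIs of the histamine-forming enzyme Hdc and 39 of Kit.

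The AKK barcodes without Kit and Mcpt8 lay beside the basophil side. Apart from the keratin barcode, these 13 had a median of 38754 CPM for the basophil list and 2259.6 for the mast lists, and in 0 of 13 were the mast lists higher. Their basophil list ranged from 20461 to 76474 CPM, and that of the basophil side from 28268 to 93880.4. In the other PBS and AKK barcodes this list had medians of 3362 and 2622 CPM but reached 86709 and 109953. A high level of the list alone thus does not mark a basophil. Ms4a2 was read in 12 of the 13 AKK barcodes without Kit and Mcpt8 and Gata2 in 13. The doublet-marked PBS barcode also had a high basophil list (33524 CPM), with 49 UMIs of Hdc, 38 of Ccl3 and 12 of Csf1. Of the barcodes with both genes, 1 of AKK (23708 CPM of the basophil list, 0 UMIs of Mcpt1) lay near the basophil side, and 2 of PBS had 1945 and 2047 UMIs of Mcpt1 and lay with the mast side, the latter beside 58 UMIs of Mcpt8.

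**Figure D2:**
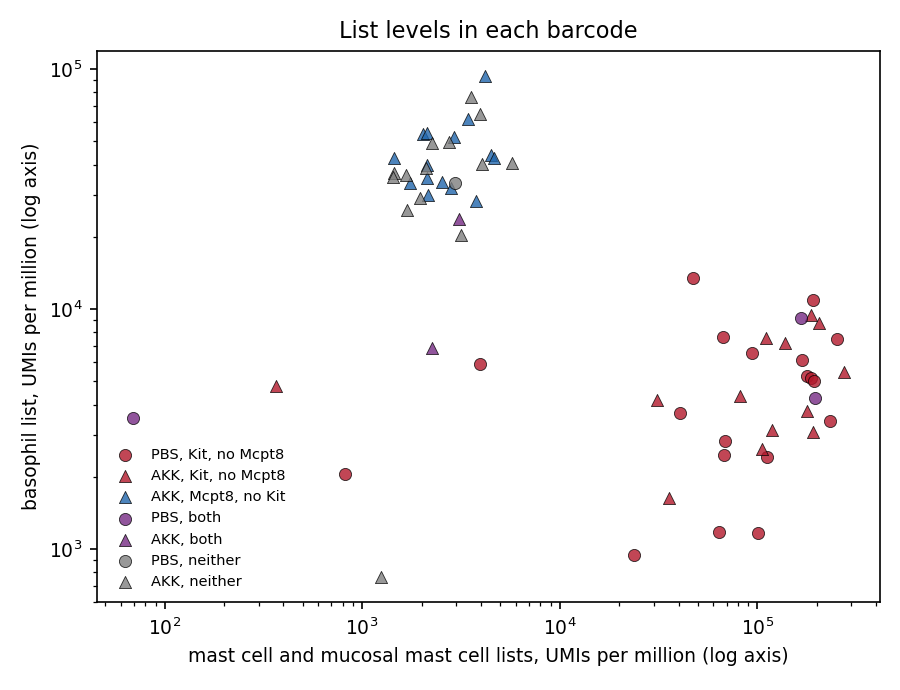
Summed level of the mast cell and mucosal mast cell lists (x axis) against the basophil list (y axis), both in CPM on log axes, in each of the 67 members; circles are PBS, triangles AKK, and colours the side. Basophil-side barcodes (blue) sit at the top left together with all barcodes without Kit and Mcpt8 (grey) except the keratin barcode near the bottom, and most mast-side barcodes (red) sit at the right.

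Mitochondrial RNA and depth differed with the sides. The share of UMIs from mitochondrial genes had a median of 5.12% (2.004 to 11.6) on the PBS mast side and 4.84% (2.60 to 13.6) on the AKK mast side, against 1.04% (0.513 to 2.64) on the basophil side. Median depth was 7281 UMIs on the PBS mast side, 14180 on the AKK mast side and 7510 on the basophil side. The part of either in the contrasts was not tested.

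Free RNA in droplets gives UMIs in cells that do not express a gene, and T cell barcodes (at least 2 UMIs of Cd3e, 286 PBS and 664 AKK, median depths 10669 and 9962 UMIs) served as its measure. Mcpt1 had a UMI in 24.1% of PBS and 20.03% of AKK T cell barcodes, against 16 of 19 and 13 of 13 barcodes of the mast sides. With each barcode thinned to 4336 UMIs, which left out 2 shallower barcodes of each side, the T cell shares were 8.73% and 7.45% and the mast sides held it in 14 of 17 and 10 of 11. Ms4a2 and Gata2 were read in 0 of 286 PBS T cell barcodes (upper bound 1.28%, Clopper-Pearson) and in 0.301% and 0.602% of AKK ones, and Mcpt8 in 1.05% and 0.602%, while Kit was read in 17.8% and 8.13%. Hdc was read in 15.4% and 19.3% of T cell barcodes and in 16 of 19 and 9 of 13 barcodes of the mast sides, and after thinning in 7.27% and 11.3% against 12 of 17 and 5 of 11. Ccl3 was read in 48.8% of AKK T cell barcodes and 10 of 13 of the AKK mast side, but after thinning in 29.0% and 3 of 11, so no share above that of T cells was seen on that side, and how much of the T cell signal is free RNA was not tested. On the basophil side Ccl3 was read in 15 of 15, and in 13 of 13 after thinning.

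The genes of the rule were distributed as follows. Cpa3, the granule carboxypeptidase (GRCm38, chr3:20215620-20242181, minus strand), had 68.6 to 11079.8 CPM with a median of 2747 on the PBS mast side, 91.4 to 6258 with a median of 3970.2 on the AKK mast side, and 0 to 2679 with a median of 432 on the basophil side. It was higher on the mast sides, with ranges that overlap. Gata2, a transcription factor of both lineages (chr6:88193891-88207032, plus strand), ran the other way, with medians of 404, 449 and 1657 CPM, and was highest on the basophil side. Ms4a2, the beta chain of the IgE receptor (chr19:11615523-11623719, minus strand), overlapped between the AKK sides, with 0 to 1410.4 and 0 to 1596 CPM and medians of 456 and 583. Kit (chr5:75574916-75656722, plus strand) had medians of 1209 CPM on the PBS and 855 on the AKK mast side. Mcpt8 (chr14:56082166-56085273, minus strand) ranged from 104 to 7975 CPM on the basophil side with a median of 316.

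The 2 sides read different genes of the chymase locus, a cluster of granule protease genes. It holds 15 genes over 321 kb, chr14:55941451-56262260 on GRCm38, from Cma1 through the Mcpt genes and Ctsg to the granzymes. Mcpt1, a mucosal mast cell chymase, had 0 to 165005 CPM with a median of 39834 on the PBS mast side and 45.7 to 137679 with a median of 74627 on the AKK mast side, but 0 UMIs in all 15 basophil-side barcodes. Mcpt2, the other mucosal chymase, had medians of 23428 and 30537 CPM on the mast sides and 2 UMIs in all on the basophil side. Mcpt4, a chymase of connective tissue mast cells, had medians of 3515 and 5219 CPM and 0 UMIs on the basophil side. These 3 genes were thus high in most mast-side and at or near 0 in all basophil-side barcodes. Mcpt8, the next gene along, had 339 UMIs on the basophil side and by the division 0 on the mast sides. Cathepsin G (Ctsg), a protease of granulocyte precursors, had 0, 5 and 38 UMIs, of which 35 lay in the basophil-side precursor barcode. Gzmb, a granzyme of cytotoxic cells, was read on all 3 sides, with summed levels of 964, 869.5 and 525 CPM, while Gzmd, Gzme, Gzmf, Gzmg and Gzmn had a summed 0 UMIs. Gzmc had 12 UMIs in 2 basophil-side barcodes.

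**Figure D3:**
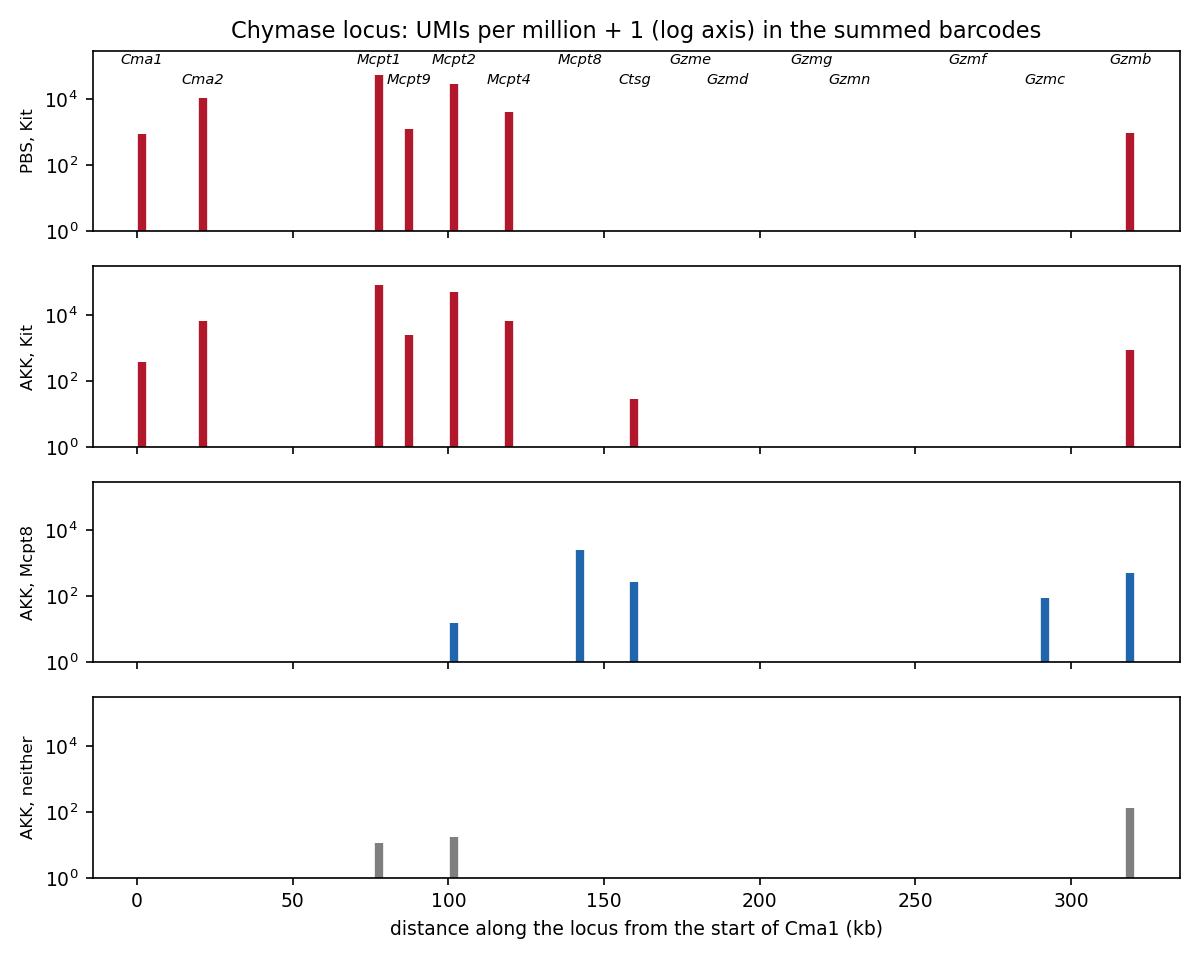
Level of the 15 genes of the chymase locus (y axis, CPM + 1, log axis) in the summed barcodes of each side (1 panel each, no error shown), by distance along the locus from the start of Cma1 (x axis, kb). The genes before Mcpt8 have bars on both mast sides, Mcpt8 has a bar on the basophil side, and Gzmb has one in all 4 panels.

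The promoters of Mcpt1, Mcpt4 and Mcpt8 of this locus, and of Ms4a2 outside it, are shown. Mcpt1 and Mcpt4 were read on the mast sides, Mcpt8 on the basophil side and Ms4a2 on both. Each runs 5′ to 3′ from 250 bases before to 50 bases after the start site, from RefSeq on GRCm38.p6, and capitals mark the GATA motifs AGATAA and TGATAA and AGATAG and TGATAG on either strand. The windows are chr14:56017714-56018013 (plus strand) for Mcpt1, chr14:56062261-56062560 (minus strand) for Mcpt4, chr14:56085148-56085447 (minus strand) for Mcpt8 and chr19:11623670-11623969 (minus strand) for Ms4a2.
Mcpt1: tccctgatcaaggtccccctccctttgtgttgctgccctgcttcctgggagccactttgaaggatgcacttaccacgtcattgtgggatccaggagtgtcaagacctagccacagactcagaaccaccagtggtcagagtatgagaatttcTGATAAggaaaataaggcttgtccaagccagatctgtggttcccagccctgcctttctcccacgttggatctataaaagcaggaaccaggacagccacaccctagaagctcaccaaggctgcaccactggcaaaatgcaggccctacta
Mcpt4: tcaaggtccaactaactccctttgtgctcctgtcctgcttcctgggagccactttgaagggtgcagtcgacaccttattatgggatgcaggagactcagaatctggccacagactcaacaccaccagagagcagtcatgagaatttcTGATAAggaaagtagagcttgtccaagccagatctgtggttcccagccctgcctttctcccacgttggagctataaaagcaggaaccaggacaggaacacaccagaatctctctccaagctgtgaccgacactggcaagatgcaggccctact
Mcpt8: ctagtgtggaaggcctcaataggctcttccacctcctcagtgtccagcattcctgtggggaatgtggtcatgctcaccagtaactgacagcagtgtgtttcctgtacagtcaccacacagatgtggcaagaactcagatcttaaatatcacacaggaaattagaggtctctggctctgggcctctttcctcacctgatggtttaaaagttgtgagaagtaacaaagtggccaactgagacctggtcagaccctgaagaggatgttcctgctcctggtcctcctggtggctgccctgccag
Ms4a2: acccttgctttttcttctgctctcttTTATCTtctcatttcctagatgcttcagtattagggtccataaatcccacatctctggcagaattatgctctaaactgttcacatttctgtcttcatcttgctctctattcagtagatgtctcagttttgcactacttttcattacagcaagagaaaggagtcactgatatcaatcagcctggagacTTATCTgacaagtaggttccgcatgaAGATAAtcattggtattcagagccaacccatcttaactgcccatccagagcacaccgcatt
Mcpt1 and Mcpt4 each held 1 match, starting at -99 and -103 from the start site, Mcpt8 held 0 and Ms4a2 held 3. Of all 32851 promoters of this length, 29.8% held at least 1 match and 1.76% at least 3. Of 20 genes looked up, 16 had an entry and 10 of these held a match. The matches describe the letters in these windows only.

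The Cma and Mcpt genes of the locus were summed with Cpa3, Prss34 and the tryptases Tpsb2 and Tpsab1, leaving out Ctsg and the granzymes. They took 10.9% of all UMIs on the PBS mast side (barcode median 8.96%, highest 28.0%) and 15.1% on the AKK mast side (11.7%, 28.1%). On the basophil side they took 0.923%, or 0.185% without its precursor barcode, and included 780 UMIs of Prss34 and 339 of Mcpt8. Within the mast sides the proteases varied between barcodes. At least 10 UMIs of Mcpt1 and Mcpt2 together were found in 16 of 19 PBS and 12 of 13 AKK barcodes. Cma2 was read in some and not in others: 1938 UMIs lay in 8 PBS barcodes and 1194 in 7 AKK barcodes, with 0 in the rest. Transcripts of Cma2 and Mcpt9 are 98.1% alike over 809 aligned bases, so reads may be split between them and both levels are uncertain. Connective tissue proteases without mucosal ones were found in 1 PBS barcode, with 104 UMIs of Cma1, 77 of Mcpt4, 112 of Tpsb2 and 0 of Mcpt1 and Mcpt2. An AKK barcode with 48 UMIs of Cma1 and 81 of Tpsb2 also had 377 of Mcpt1. These were the only mast-side barcodes with UMIs of Prss34, 4 in each, and they had 29 and 21 UMIs of Hdc. Tpsb2 had at least 10 UMIs in 13 PBS and 7 AKK mast-side barcodes and 0 in 4 and 5.

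The mast side was then set against the basophil side within the AKK library, over the 2589 genes with at least 20 UMIs in both together. The log2 ratio of the summed levels, each as CPM + 20, was taken, and a gene was counted where it passed 2-fold. In all, 415 genes (16.0%) were higher and 570 (22.0%) lower on the mast side, and the median over all was -0.06. Of 11 measured genes of the mast cell list, 9 were past 2-fold higher and 1 lower (median 3.25), the lower one being Cyp11a1, the first enzyme of steroid synthesis, at 0.256 (0.183 to 0.354) of the basophil-side level (95% interval, exact conditional on the summed UMIs, as for all ratios below). Of 17 measured basophil genes, 14 were lower and 0 higher (median -3.01). Beside the chymases, several genes were read on the mast side alone. Tph1, the first enzyme of serotonin synthesis, had 222 UMIs in 12 of 13 barcodes and 0 on the basophil side, at least 55.1-fold higher with the floor of 3 counts taken over the side. The same bound was at least 82.9-fold for Mctp1, a calcium-binding membrane protein, with 334 UMIs, and at least 46.4-fold for Pde3a, a phosphodiesterase of cyclic nucleotides, with 187. Hs6st2, a heparan sulfate sulfotransferase, was at least 28.0-fold higher and Mitf, a transcription factor of mast cells, at least 7.69-fold, with 113 and 31 UMIs. Cd34, a surface protein of precursors that mouse mast cells also carry, was read in 15 of 19 PBS and 10 of 13 AKK mast-side barcodes and in 0 of 15 on the basophil side (upper bound 21.8%), with 1.05% and 0.452% of PBS and AKK T cell barcodes as background. After thinning it was read in 14 of 17 and 7 of 11 mast-side barcodes and in 0.727% and 0% of T cell barcodes.

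With all barcodes of both sides, genes of the IgE receptor were higher on the mast side or within 2-fold. Of 14 measured genes of the receptor and its proximal signalling, 5 were past 2-fold higher and 0 lower on the mast side, with a median of 0.44. Over all genes the shares were 16.0% and 22.0%. Fcer1a, the alpha chain that binds IgE, had 0 to 3244 CPM with a median of 1257 on the AKK mast side and 0 to 958 with a median of 216 on the basophil side, a ratio of 4.28 (3.08 to 6.06), or 6.64 (4.36 to 10.6) without the precursor barcode of each side. The ranges overlap, though 8 of 13 mast-side barcodes lay above all of the basophil side. The kinase Lyn was higher on the mast side, at 6.20-fold (4.05 to 9.91) (3.82 without the precursor barcodes), as were Inpp5d, a lipid phosphatase that restrains the receptor, at 3.84-fold (2.51 to 6.09), and Grap2, an adaptor, at 13.8-fold (3.55 to 118) on 37 and 2 UMIs. Gab2, another adaptor, was lower but within 2-fold, at 0.525 (0.389 to 0.707), and past 2-fold lower without the precursor barcodes, at 0.399 (0.287 to 0.551). The kinase Fyn likewise went from 0.558 (0.326 to 0.946) to 0.323 (0.173 to 0.583), past 2-fold lower. Syk, the kinase the receptor activates, had a ratio of 0.576 (0.324 to 1.01) that includes 1, as did that without the precursor barcodes, 0.888 (0.325 to 2.54).

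Histamine and prostaglandin genes differed by enzyme. Hdc, which forms histamine, had 1170.2 to 11444 CPM with a median of 2796 on the basophil side and 0 to 3474 with a median of 179.6 on the AKK mast side. The ranges overlap, and the mast-side level was 0.132 (0.103 to 0.168) of the basophil-side level. Slc18a2, the transporter that loads amines into granules, had summed levels of 209 and 355 CPM, a ratio of 0.589 (0.375 to 0.921). Over all genes, 16.0% were past 2-fold higher on the mast side and 22.0% lower. Of 6 measured genes of prostaglandin and leukotriene synthesis, 2 were past 2-fold higher on the mast side and 1 lower. The higher ones were Hpgds, which forms prostaglandin D2, with 69 and 0 UMIs (at least 17.1-fold), and the constitutive cyclooxygenase Ptgs1, with 35 and 0, of which 1 barcode held 57.1%. The lower one was the inducible cyclooxygenase Ptgs2, with 14 UMIs on the mast side and 362 on the basophil side, a ratio of 0.0288 (0.0156 to 0.0489). The leukotriene genes Alox5 and Alox5ap had ratios of 1.10 (0.723 to 1.68) and 1.301 (0.986 to 1.72), both including 1.

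Secreted factors were mostly higher on the basophil side. Of 15 measured cytokine and chemokine genes, 11 were past 2-fold lower on the mast side and 0 higher, with a median of -3.46. Ccl3, a chemokine for monocytes and T cells, had 1713 to 26565 CPM with a median of 9895 on the basophil side and 0 to 469 with a median of 96.4 on the AKK mast side. The sides did not overlap: 15 of 15 basophil-side barcodes were above all of the mast side, and so were 15 of 15 for the related Ccl4, with 1379 UMIs against 53. Overlap of barcodes, here and for other genes of this contrast, was counted for chosen genes only. The share of all genes without overlap was not computed. The mast-side ratio of Ccl4 was 0.0286 (0.0213 to 0.0376), but 33 of the 53 UMIs lay in the mast-side precursor barcode, and without the precursor barcode of each side it was 0.0100 (0.00609 to 0.0155). Csf1, the growth factor of macrophages, had a median of 3316 CPM with 1 barcode at 0 on the basophil side, against 1 UMI in all on the AKK mast side, a mast-side ratio of 0.00170 (4.28e-05 to 0.00950). The chemokines Ccl6 and Ccl9 and the cytokine oncostatin M (Osm) had 361, 128 and 360 UMIs on the basophil side against 1, 10 and 24, mast-side ratios of 0.00206 (5.21e-05 to 0.0116), 0.0582 (0.0272 to 0.110) and 0.0496 (0.0314 to 0.0750), and for Ccl9 0.00621 (0.000156 to 0.0354) without the precursor barcodes, on 1 mast-side UMI. Il6 had 249 UMIs in 13 of 15 basophil-side barcodes and 39 in 9 of 13 on the mast side, a mast-side ratio of 0.117 (0.0810 to 0.164). Il4, a cytokine of type 2 responses, was an exception, with summed levels of 182 and 229 CPM and a ratio of 0.792 (0.471 to 1.34) that includes 1. It was read in 12 of 19, 7 of 13 and 9 of 15 barcodes of the PBS mast, AKK mast and basophil sides and in 1.75% and 3.61% of T cell barcodes, and after thinning in 9 of 17, 4 of 11 and 5 of 13 against 1.45% and 2.33%.

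**Figure D4:**
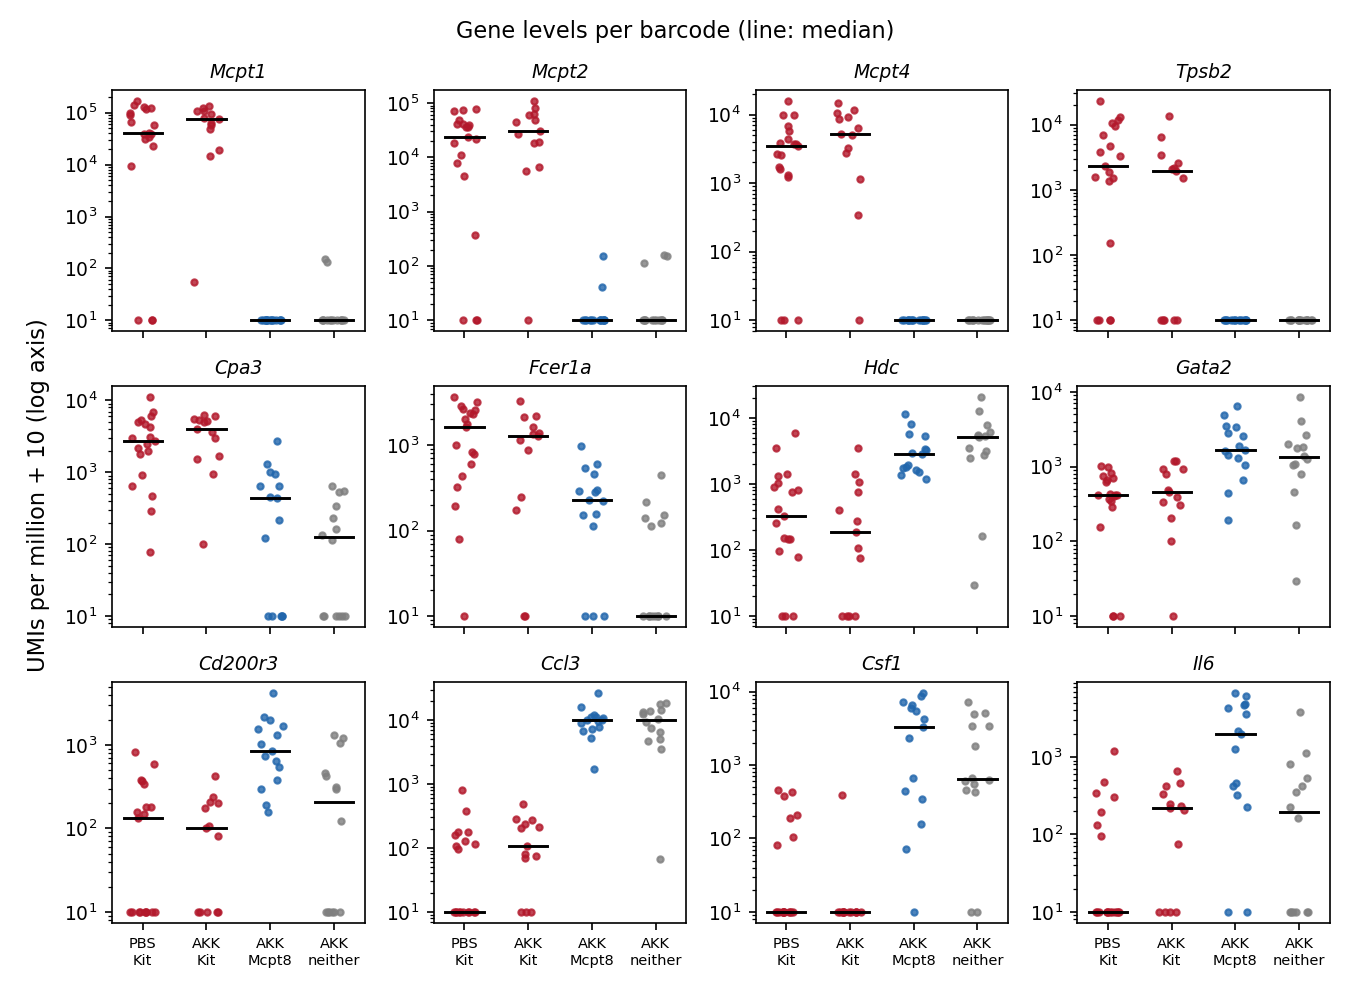
Level of 12 genes in each barcode (y axes, CPM + 10, log axis) on the PBS and AKK mast sides (red), the AKK basophil side (blue) and in AKK barcodes with neither Kit nor Mcpt8 (grey); each point is a barcode and the line the median. Mcpt1, Mcpt4 and Tpsb2 stand at the axis floor in all basophil-side barcodes, and Ccl3 on the basophil side lies above all of the AKK mast side.

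Receptors were divided in the same way. Of 13 measured receptors for cytokines, chemokines, lipids and complement, 1 was past 2-fold higher on the mast side and 8 lower (median -2.46). The higher one was Il1rl1, the receptor of interleukin 33, with 81 UMIs against 16, a ratio of 3.77 (2.19 to 6.90). C5ar1, a complement receptor, had 0 UMIs on the mast side and 66 on the basophil side, at least 29.6-fold higher there, and Ccr2, a receptor of monocyte chemokines, had 0 and 22 (at least 9.85-fold). Il18rap, a chain of the interleukin 18 receptor, had a mast-side ratio of 0.0753 (0.0333 to 0.149). Of 7 measured inhibitory and paired receptors, 4 were lower on the mast side and 1 higher, beside 22.0% and 16.0% of all genes. Lilr4b, a leukocyte immunoglobulin-like receptor, had a ratio of 0.149 (0.115 to 0.190), and Cd200r3, an activating receptor of basophils and mast cells, 0.128 (0.0783 to 0.1999). Pdcd1lg2, which encodes PD-L2, a ligand of PD-1, was the higher one, at 2.73-fold (1.07 to 8.23) on 22 and 6 UMIs, while Cd274, which encodes the other ligand PD-L1, was lower, at 0.390 (0.170 to 0.846) on 11 and 21.

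Most early response genes were lower on the mast side, while the transcription factor list was nearer to all genes. Of 12 measured transcription factors, 4 were past 2-fold higher and 3 lower on the mast side, beside 16.0% and 22.0% of all genes, and the median was -0.29. Meis1, a homeobox factor, was higher, at 15.4-fold (5.03 to 76.6) on 62 and 3 UMIs, and Bhlhe40 was 3.13-fold (1.76 to 5.91) higher. Cebpa and Cebpb, factors of granulocytes, were lower, at 0.0596 (0.00684 to 0.239) and 0.250 (0.171 to 0.359), and Runx1 at 0.407 (0.341 to 0.484). Without the precursor barcodes Meis1 had 57 and 1 UMIs, Cebpa 0 and 18, and the ratios were 5.08 (2.43 to 12.3) for Bhlhe40, 0.134 (0.0796 to 0.216) for Cebpb and 0.213 (0.169 to 0.266) for Runx1, of which the mast-side precursor barcode held 95 of 201 UMIs. Of 15 measured immediate early and heat shock genes, which are known to be induced when tissue is dissociated, 13 were past 2-fold lower on the mast side and 0 higher, with a median of -2.04 (-2.68 without the precursor barcodes). Egr1 had a median of 14313 CPM on the basophil side and 265 on the AKK mast side, with 11 of 15 basophil-side barcodes above all of the mast side, and Ier2 was above in 15 of 15. The list summed to a median of 59842 CPM per barcode on the basophil side, 7275 on the AKK mast side and 9783 in the other AKK barcodes. It was thus high where Ccl3, Ccl4, Osm and Ptgs2 were high, and its part in that difference was not tested. Among other genes with the largest ratios, Cd9, a tetraspanin, had 11 UMIs on the mast side and 517 on the basophil side, Nlrp3, an inflammasome sensor, 5 and 184, and Acod1, which makes itaconate, 2 and 364, a mast-side ratio of 0.00409 (0.000493 to 0.0149). Syne1, a nuclear envelope protein, had 3 and 152, a ratio of 0.0147 (0.00300 to 0.0438), and Aqp9, a channel for water and glycerol, 0 and 71, at least 31.8-fold higher on the basophil side.

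The AKK barcodes with neither gene had basophil-side genes as well. In the 13 with low keratin, Ccl3 had 3576 to 18337 CPM with a median of 10284, and Hdc a median of 5245. Csf1 had a median of 656, below the 3316 of the basophil side, with overlapping ranges. Ccl6 was read in 13 of 13, Osm in 13 and Acod1 in 12. Several genes were lower in them than on the basophil side without its precursor barcode. Il6 had summed levels of 550.1 and 2316 CPM, Cd200r3 407 and 1182, and the receptor chains Ms4a2 203 and 552 and Fcer1a 83.7 and 233. Prss34 had 0 UMIs in them and 65 in 4 of the 14 basophil-side barcodes, of which the barcodes with 7, 22 and 35 UMIs had 13, 24 and 21 of Mcpt8 and 0, 5 and 3 of Csf1. Mcpt8 had 83 UMIs in those 14, or 804 CPM, against 2506 CPM with the precursor barcode. As the absence of Mcpt8 chose the 13 barcodes, these differences are a description.

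The mast sides of PBS and AKK were compared over 2845 genes with at least 20 UMIs in the 19 and 13 barcodes together. AKK was past 2-fold higher for 171 genes (6.01%) and lower for 211 (7.42%), and the median log2 ratio over all was -0.02. The ratios compare these libraries and not the treatments. Basophil sides could not be compared, since PBS held 0 such barcodes.

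The mucosal chymases were higher by under 2-fold and the tryptases lower in AKK. Of the 5 mucosal mast cell genes, 0 passed 2-fold and 4 were above 0 on the log2 scale, with a median of 0.79. The AKK level of Mcpt1 was 1.44-fold (1.399 to 1.47), and that of Mcpt2 1.73-fold (1.67 to 1.79) the PBS level, and Mcpt4, of the mast cell list, had summed levels of 6345 CPM in AKK and 4129 in PBS. All 3 had ranges over barcodes that overlap. Without the precursor barcode, Mcpt9 passed 2-fold, at 2.09 (1.78 to 2.47) on UMIs that may be shared with Cma2. The log2 ratio of Mcpt1 was then 0.71, and without the deepest barcode of each library 0.28 (0.55 for Mcpt2). Of the PBS side's 178478 UMIs, 28466 and 14569 lay in 2 barcodes with 0 UMIs of Mcpt1, Mcpt2 and Mcpt4. In AKK the precursor barcode alone was as low, with 1 UMI of Mcpt1. The 2 PBS barcodes lower the summed PBS level of these genes, and the ratios without both were not computed. The mast cell list had 0 of 12 genes past 2-fold higher and 3 lower, with a median of -0.28. The lower ones were Tpsb2 at 0.424 (0.373 to 0.482) of the PBS level, its neighbouring tryptase Tpsab1 at 0.261 (0.130 to 0.488) and Cma1 at 0.419 (0.312 to 0.558). Tpsb2 had 0 to 22562 CPM with a median of 2345 on the PBS side and 0 to 13399.5 with a median of 1928 on the AKK side, so the groups overlap widely. For Cma1, 1 PBS barcode held 104 of 164 UMIs. Kit was lower in AKK, at 0.656 (0.524 to 0.820), Cpa3 higher, at 1.501 (1.34 to 1.68), and Ms4a2 higher, at 1.65 (1.19 to 2.32), all with overlapping ranges. The 2 PBS barcodes with 0 UMIs of Mcpt1, Mcpt2 and Mcpt4 held 13 and 1 UMIs of Cpa3. They lower the summed PBS level of Cpa3 as well, and its ratio without both was not computed.

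**Figure D5:**
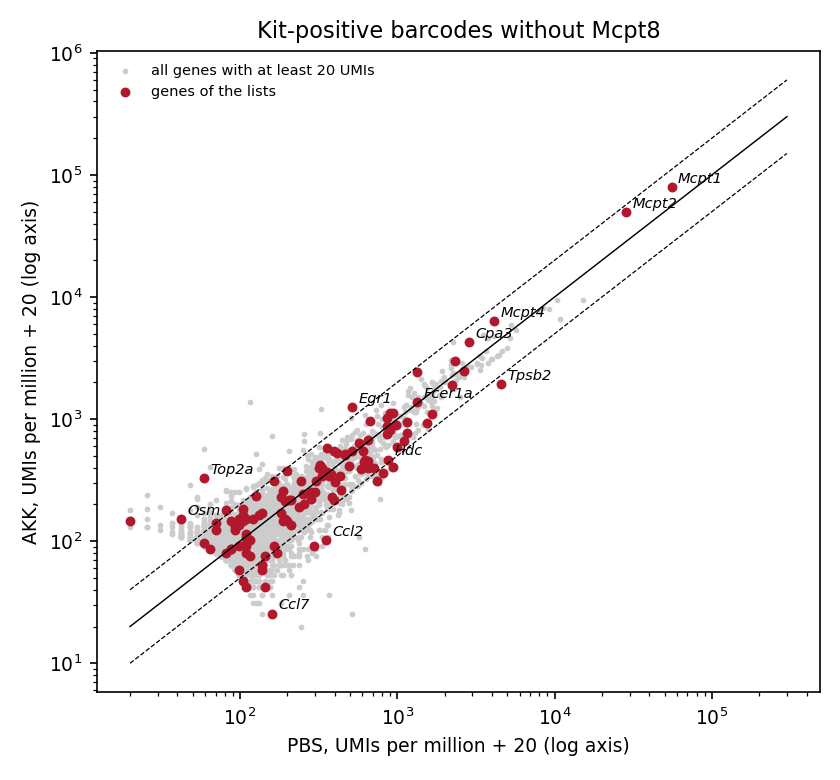
Summed level of each gene on the PBS mast side (x axis) and the AKK mast side (y axis), in CPM + 20 on log axes; grey points are the 2845 genes with at least 20 UMIs, red points genes of the lists and the rule, the solid line equality and the dashed lines 2-fold (no error shown). Mcpt1, Mcpt2 and Mcpt4 lie above the line of equality and Tpsb2 below the lower dashed line.

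Receptor, mediator and cytokine genes were set beside all genes, of which 6.01% were past 2-fold higher and 7.42% lower in AKK. Of 16 measured IgE receptor and signalling genes, 0 passed 2-fold in either direction, with a median of -0.18, though Syk did without the AKK precursor barcode, at 0.396 (0.180 to 0.810), and Fcer1a had a ratio of 1.03 (0.860 to 1.24). Of 10 measured amine and granule genes, 0 were past 2-fold higher and 2 lower in AKK. Among the lower ones was Stxbp2, a protein of granule release, at 0.246 (0.0597 to 0.761) on 4 AKK and 16 PBS UMIs. Hdc was 0.523 (0.395 to 0.690) of the PBS level, with medians of 316 and 179.6 CPM and overlapping ranges. Of 12 measured cytokines and chemokines, 1 was past 2-fold higher and 2 lower in AKK. Osm was higher, with 24 UMIs in 10 AKK barcodes and 4 in 4 PBS barcodes, a ratio of 5.89 (2.02 to 23.4), although after thinning it was read in 4 of 11 and 3 of 17. Il6 had 39 AKK and 19 PBS UMIs, a ratio of 2.02 (1.14 to 3.69) with a log2 ratio of 0.89. Without the precursor barcode it passed 2-fold, at 2.29 (1.29 to 4.20) with a log2 ratio of 1.06. Ccl2, a monocyte chemokine, was lower, with 15 UMIs in 3 AKK and 59 in 13 PBS barcodes, a ratio of 0.250 (0.132 to 0.446). Ccl7 was the other lower one, with 73.1% of its UMIs in 1 barcode. Il4 had 33 and 42 UMIs, a ratio of 0.772 (0.474 to 1.25) that includes 1.

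Antigen presentation and interferon genes were few and mixed. Of 9 measured MHC class I genes, 0 passed 2-fold, with 4 above and 5 below 0 on the log2 scale and a median of -0.62. H2-D1 was 0.547 (0.401 to 0.739) and B2m, its light chain, 0.592 (0.467 to 0.749) of the PBS level, while H2-K1, at 1.04 (0.799 to 1.36), had an interval that includes 1. Of the type I interferon genes 2 could be measured and both were past 2-fold lower in AKK, Isg15 with 5 AKK and 15 PBS UMIs, a ratio of 0.327 (0.0931 to 0.948) or 0.372 (0.106 to 1.08) without the precursor barcode, and Ifih1 with 4 and 22. Of the checkpoint ligands, Pdcd1lg2 was 2.40-fold (1.06 to 5.92) the PBS level on 22 and 9 UMIs and Cd274 0.4002-fold (0.179 to 0.833) on 11 and 27. Meis1 was lower, at 0.429 (0.313 to 0.582).

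Some list values rested on single barcodes. Cell cycle genes had a median of 1.14 with 3 of 5 past 2-fold higher in AKK, but 53 of the 56 AKK UMIs of the topoisomerase Top2a came from 1 barcode, and without it the median was -0.27 and the log2 ratio of Top2a -0.57. Of 15 early response genes, 1 was past 2-fold higher and 1 lower, with a median of 0.03. Egr1 was 2.48-fold (1.93 to 3.21) the PBS level, but without the deepest barcode of each library its log2 ratio was -0.01. Fos was lower, at 0.4004 (0.285 to 0.555). Fosb and Jund had ratios of 0.590 (0.458 to 0.757) and 0.596 (0.488 to 0.726). Both were past 2-fold lower without the AKK precursor barcode, at 0.439 (0.327 to 0.584) and 0.447 (0.355 to 0.561), and the list median was then -0.24. Without the AKK precursor barcode, the log2 ratio of Runx1 was -0.39 in place of 0.33, that of Ccl4 -0.19 in place of 0.91, and the median of the cytokine list -0.03 in place of 0.21.

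Among all genes, those with the largest ratios between the mast sides were mostly low in level. Larp4, an RNA-binding protein, had 31 UMIs in 9 AKK and 2 in 2 PBS barcodes, a ratio of 15.2 (3.87 to 131), and Ndufb6, a subunit of respiratory complex I, 24 and 1 UMIs, a ratio of 23.6 (3.84 to 969). Snx18, a sorting nexin of endocytosis, was better measured, with 90 UMIs in 12 of 13 AKK and 19 in 8 of 19 PBS barcodes, a ratio of 4.65 (2.81 to 8.08). Cnn2, Usp54, Pola1, Crtam, Adamtsl1, Hmgn2 and Nabp1 were also higher, with 19 to 37 UMIs in AKK and 1 to 6 in PBS. With the barcodes that held both Kit and Mcpt8 added, the log2 ratio of Pola1, a subunit of DNA polymerase alpha, was -0.36. Lower in AKK was Fgfr1, a fibroblast growth factor receptor, with 3 UMIs in 3 AKK and 62 in 9 PBS barcodes, a ratio of 0.0475 (0.00954 to 0.145). Cblb, a ubiquitin ligase, had 9 and 45 UMIs, and Samhd1, a nucleotide hydrolase, 4 and 24. Ehd4, Pard3b, Gm6209, Rufy1, Xpo7, Rab3gap2 and Atp9b had 2 to 10 UMIs in AKK and 20 to 51 in PBS.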

How the data were processed

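The deposited matrices hold raw UMI counts per gene and barcode from 10x 3′ v3 libraries of 1 PBS and 1 AKK sample, made by the authors with Cell Ranger 7.1.0 per the file headers, while the submitters' processing notes name version 5.0.1 and the mm10 genome. The setting for intron reads and the annotation's release were not given in the sources used here. Counting reads that are shared by near-identical genes can move UMIs between them.

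From these counts, barcodes with at least 200 genes and under 15% mitochondrial UMIs were kept and members were taken by the marker rule. The members and gene lists were chosen with earlier results of these data known. Counts were summed per side and scaled to CPM, and genes with at least 20 UMIs over both sides were compared as the log2 ratio of CPM + 20, with 2-fold as the limit. Intervals are 95% (exact Poisson for levels, Clopper-Pearson for shares, Newcombe for differences of shares, exact conditional binomial for ratios) and cover counting error only. Shares of barcodes with a UMI were also computed after thinning to 4336 UMIs. Doublets were scored with Scrublet in scanpy 1.11.5, the highest scores were marked at 0.8% per 1000 barcodes, and marked barcodes stayed in except in an alternative. Named genes were the rule's markers, up to 4 genes of each list by their interval, size or level, and the 10 highest and 10 lowest ratios of each contrast among genes whose interval excludes 1 and of which no barcode held over 50% of the UMIs, and some further genes were named for their known roles, and some barcodes described, after their values were seen. Alternatives changed the filters, the pseudocount, the weighting of barcodes, the side limits and the barcodes included. The ratio procedure was tested on simulated summed counts without spread between barcodes, so that spread was not covered. Results on 2 further genes are not reported here. Promoters came from RefSeq on GRCm38.p6. Python 3.11.15, numpy 2.4.6, scipy 1.17.1, pandas 2.3.3 and matplotlib 3.10.9 were used.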

Additional observations from a re-analysis of the deposited data

How the results depend on the processing

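The AKK share of members exceeded the PBS share by 0.159 to 0.253 percentage points under all 6 alternatives, and the mast side was 66.7 to 86.4% of PBS and 26.2 to 31.1% of AKK members under 7 alternatives, with 66.7% in PBS when Cd3e, Cd79a and C1qa were not limited. Between the mast sides, counts past 2-fold were 81 higher and 116 lower in AKK with a pseudocount of 50, and 42 and 62 with at least 50 UMIs, which tests fewer genes. Between mast and basophil side they were 156 higher and 292 lower with at least 50 UMIs, 267 higher with the barcodes of both genes in both sides, and 968 lower with the basophil side taken as all members without Kit (718 without the keratin barcode). Directions of log2 ratios turned as follows, and the cause was not tested. In AKK against PBS, taking Kit whatever Mcpt8 gave Atf3 -0.80, Cxcl2 0.52, Nr4a1 -0.23 and Pola1 -0.36. At least 5 rule UMIs gave Atf3 -0.77, Ccl4 -0.16, Nr4a1 -0.13 and Runx1 -0.43, and leaving out the precursor barcode gave -0.71, -0.19, -0.25 and -0.39. Leaving out the deepest barcode of each library gave Egr1 -0.00533, Top2a -0.74 and a cell cycle median of -0.00424, and leaving out the barcode with the most Top2a gave Top2a -0.57 and a median of -0.27. In mast against basophil side, weighting barcodes alike gave Ifitm1 -0.30 and Mpo 0.0075. Leaving out the deepest barcode of each side gave B2m 0.16, Ctsg 0.12, Ifitm1 -0.24, Mpo 1.51 and Top2a -0.30. Leaving out the precursor barcodes gave B2m 0.0305, Ifitm1 -0.0245 and Nr4a1 -0.45. All members without Kit gave Ikzf2 0.10, Mpo 0.25 and Slc18a2 0.0335. The alternatives that leave out precursor, keratin, deepest or Top2a barcodes, or redraw the basophil side, and the mast share under the share's own filters, were chosen after seeing the data. No paired analysis was possible because each group had 1 library. With 13 to 19 barcodes a side and genes at 20 UMIs in all, small differences were not detectable at this depth.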
